A study of Mus musculus with 8 samples.

Results

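The 9 genes described here serve antigen presentation by MHC class II: the chain genes H2-Aa, H2-Ab1 and H2-Eb1, the invariant chain gene Cd74, the transactivator gene Ciita, the peptide-editing genes H2-DMa and H2-DMb1, and the costimulatory ligand genes Cd80 and Cd86. They were taken by symbol as genes of this pathway, with earlier results of these data known, and all 9 were found once among the 54752 genes of the count tables. Expression was measured by RNA-seq of the right cerebral cortex in 8 adult male wild-type C57BL/6 mice (C57BL/6 J in the study's methods), 4 after sham surgery and 4 after bilateral carotid artery stenosis (BCAS), with 1 mouse per library. In BCAS a microcoil is wound round each common carotid artery so that less blood reaches the brain, and the coil on the right was the narrower one. Sham mice had the same operation without coils, and the cortex of both groups was taken 3 weeks after surgery. The comparison of the groups asks how the cortical transcriptome differs under chronic hypoperfusion of the forebrain. The coils lie outside the brain, the tissue is a mixture of all cell types of the cortex, and fewer cells of a type cannot be told apart from less RNA per cell in such bulk samples.

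MHC class II molecules are heterodimers of an alpha and a beta chain that present peptides from the endocytic pathway to CD4+ T cells. The invariant chain encoded by Cd74 fills the groove of a new dimer and guides it to endosomes, where proteases trim the invariant chain to a small fragment. H2-DM, a heterodimer of the products of H2-DMa and H2-DMb1, then exchanges that fragment for other peptides, and H2-O restrains H2-DM. Transcription of these genes depends on CIITA, a coactivator that binds no DNA itself but docks on RFX, CREB and NF-Y proteins assembled at the promoters, and interferon-gamma is the classical inducer of CIITA. In the brain, class II is scarce on resting microglia and is found on activated microglia, on macrophages and dendritic cells of the brain's borders and on leukocytes that enter from blood. The C57BL/6 strain lacks a functional H2-Ea gene, so that the H2-Eb1 product has no alpha-chain partner of its own.

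The promoters are shown because the genes of this family share a pair of elements, the X box, which RFX binds, and the Y box, an inverted CCAAT box that NF-Y binds. A window of 250 bases before the transcription start was taken from RefSeq (GRCm38.p6) for 5 of the 9 genes (H2-Aa, H2-Eb1, H2-DMb1, H2-DMa and Cd80). The letters AGNAAC were used for the start of the X box and ATTGG for the Y box, and a pair was counted where AGNAAC began 15 to 45 bases before ATTGG on the same strand, on either strand of the window. Of all 32851 RefSeq windows of that length, 42.3% held AGNAAC, 33.8% held ATTGG and 1.43% held the pair. Among these genes H2-Eb1 and H2-DMb1 held it, with 33 and 34 bases between the starts of both elements and with ATTGG starting 59 and 61 bases before the RefSeq transcription start. The H2-DMb1 pair lies inside the first exon of the gene as counted, which starts further upstream in GENCODE. H2-Aa held it only in a looser form, GNAAC in place of AGNAAC, that was tried after the sequences were seen and that 4.15% of all windows held. Its elements were 33 bases apart and its ATTGG started 48 bases before the start. Neither form was found in the Cd80 and H2-DMa windows. The Cd80 window lies inside the gene as counted. The H2-DMa windows end at 34122831 and 34125517 of chromosome 17, far before the start of the gene as counted at 34135182. For both genes the bases directly before the start as counted lay outside the windows, and the pair was not tested there. Of 27 further genes of the class II pathway with a window, 3 held the pair (H2-Oa, H2-Ob and H2-Eb2). H2-DMb2, of the same family, did not, but its window lies inside the gene as counted. The whole window of H2-Eb1 (chr17:34305617-34305866, plus strand) and the stretch from the first to the second element of H2-Aa (chr17:34287867-34287904, minus strand) are given 5′ to 3′, with both elements in capitals. The same stretch follows for H2-Oa (chr17:34092302-34092340), H2-Ob (chr17:34238817-34238852) and H2-Eb2 (chr17:34325542-34325579), all on the plus strand.
H2-Eb1: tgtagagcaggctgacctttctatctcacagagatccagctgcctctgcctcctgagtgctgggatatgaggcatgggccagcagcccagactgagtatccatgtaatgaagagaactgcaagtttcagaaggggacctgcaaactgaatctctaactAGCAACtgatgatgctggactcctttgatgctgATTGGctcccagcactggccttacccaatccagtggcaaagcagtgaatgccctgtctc
H2-Aa: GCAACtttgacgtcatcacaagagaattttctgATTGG
H2-Oa: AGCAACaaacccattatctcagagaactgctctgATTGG
H2-Ob: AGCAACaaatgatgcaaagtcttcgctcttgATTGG
H2-Eb2: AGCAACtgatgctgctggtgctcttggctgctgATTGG
These matches describe letters in the windows and do not show that a protein was bound there.

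Between 16759364 and 18564612 read pairs per sham mouse and between 17498316 and 21794435 per BCAS mouse were counted on genes. Levels are given as CPM, the count scaled to a library total of 1000000, after TMM scaling, whose factors ran from 0.949 to 1.05. The groups were compared by the quasi-likelihood test of edgeR, and a gene was called at an adjusted p under 0.05 with an absolute log2 fold change (log2 FC, given with its standard error, SE) above 1. Of the 17136 genes tested, 11.0% were called higher and 1.28% lower in BCAS mice, and the median log2 FC over all of them was -0.01. In 1 sham mouse, sham 3, the choroid plexus gene Ttr stood at 696 CPM against 7.72 to 34.2 CPM in the other sham mice. Cortical neuron markers, checked because the label names cortex, were present in all libraries, at a summed 4568 to 5922 CPM in sham mice and 1518 to 3749 CPM in BCAS mice.

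All 9 genes were called higher in BCAS mice, as were 11.0% of all tested genes. The median log2 FC of the 9 was 3.58, with a range from 1.55 to 4.68. The gap was widest for the chain and invariant chain genes and narrowest for H2-DMa and Cd80. For 8 of the 9, the lowest BCAS mouse lay above the highest sham mouse, a separation seen for 18.5% of tested genes, and H2-Eb1 was the exception. The BCAS mice differed strongly among themselves. Their summed level of the 9 genes was 889 CPM in BCAS 1, 86.4 in BCAS 2, 568 in BCAS 3 and 240 in BCAS 4, against 27.7, 49.98, 30.8 and 28.4 CPM in the 4 sham mice. BCAS 2 lay nearest to the sham mice and the same order of BCAS mice, 1 above 3 above 4 above 2, held for 8 of the 9 genes. It also held for 17.7% of all tested genes and for 69.3% of the 1877 genes called higher.

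**Figure D1:**
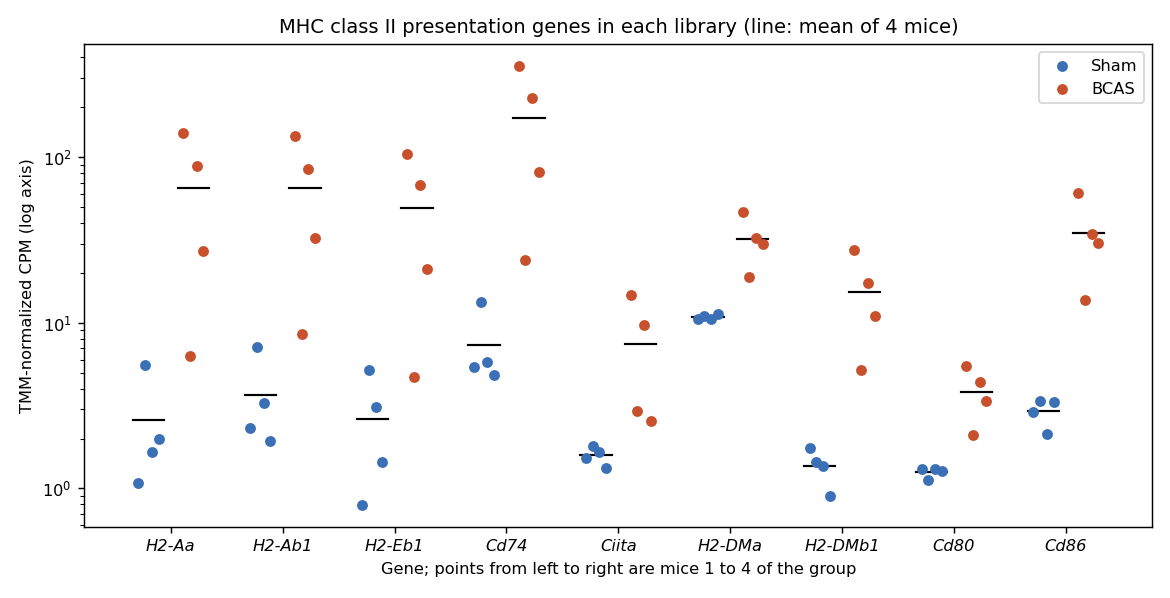
TMM-normalized CPM (log axis) of each of the 9 genes in every library, with sham mice in blue, BCAS mice in orange and the group mean as a line. Points of a group overlap for H2-Eb1 alone, where BCAS 2 (4.69 CPM) lies under sham 2 (5.18 CPM).

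The class II chain genes H2-Ab1, H2-Aa and H2-Eb1 lie next to each other on chromosome 17 (mm10) at 34263209 to 34269418, 34282744 to 34287827 and 34305877 to 34316199, H2-Aa on the minus strand and the others on the plus strand. No exon base of these 3 genes is shared with another gene of the annotation. H2-Aa, which encodes the alpha chain of I-A, was at 1.08, 5.55, 1.66 and 1.99 CPM in sham 1 to 4 and at 139.5, 6.34, 87.9 and 27.0 CPM in BCAS 1 to 4. The groups did not overlap, but BCAS 2 exceeded sham 2 only slightly, and sham 2 was the highest of the sham mice. The sham values rest on 19 to 89 read pairs, and the BCAS values on 123 to 3174. The means were 2.57 ± 2.02 and 65.2 ± 60.5 CPM (SD, n = 4 mice each), and the log2 FC was 4.68 with a SE of 0.95 and an adjusted p of 0.00924 in edgeR.

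H2-Ab1 encodes the beta chain that pairs with the H2-Aa product. It stood at 2.33, 7.11, 3.26 and 1.93 CPM in sham 1 to 4 and at 134.2, 8.60, 84.9 and 32.4 CPM in the BCAS mice, again without overlap and again with BCAS 2 close above sham 2. The log2 FC was 4.16 (SE 0.82, adjusted p = 0.00846, edgeR), from 3.66 ± 2.37 to 65.0 ± 56.1 CPM (SD, n = 4 mice each). H2-Eb1, the beta chain gene of I-E, was measured at 0.796, 5.18, 3.09 and 1.45 CPM in sham and at 104.1, 4.69, 68.2 and 21.0 CPM in BCAS mice. Here sham 2 lay above BCAS 2, so that the groups overlapped, while the other 3 BCAS mice were above all sham mice. Its log2 FC was 4.24 with a SE of 0.94 and an adjusted p of 0.0126 by edgeR. H2-Eb1 has a close relative next to it, H2-Eb2, with which reads could be shared. H2-Eb2 held at most 29 read pairs in any library, a count that cannot show whether reads matching both genes were dropped. Under limma-voom, which called 9.51% of tested genes higher, 5 of the 9 genes passed, and the 3 chain genes did not, with adjusted p of 0.0876 for H2-Aa, 0.0623 for H2-Ab1 and 0.104 for H2-Eb1. Their limma-voom log2 FC values were 4.19, 3.73 and 3.83, with SE of 1.72, 1.35 and 1.67.

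Cd74, the invariant chain gene, lies at 60803848 to 60812646 of chromosome 18 (mm10, plus strand) and shares 0.9% of its exon bases with the microRNA gene Mir5107. Its level was 5.40, 13.4, 5.78 and 4.83 CPM in the sham mice and 355.6, 24.0, 229.2 and 81.7 CPM in the BCAS mice. No BCAS mouse came as low as the highest sham mouse, which once more was sham 2. The mean went from 7.34 ± 4.03 to 172.6 ± 149.5 CPM (SD, n = 4 mice each), a log2 FC of 4.56 (SE 0.80, adjusted p = 0.00567, edgeR). Without BCAS 1 the log2 FC was 4.0 for H2-Aa, 3.54 for H2-Ab1, 3.59 for H2-Eb1 and 3.95 for Cd74, and each was still called. With BCAS 1 and BCAS 3 both left out these values were 2.74, 2.52, 2.32 and 2.88. There H2-Eb1 was no longer called (adjusted p = 0.0583, edgeR). The highest BCAS mouse exceeded the lowest 14.8-fold for Cd74, 15.6-fold for H2-Ab1, 22.0-fold for H2-Aa and 22.2-fold for H2-Eb1. Among the sham mice the same ratio was 2.77 for Cd74, 3.68 for H2-Ab1, 5.14 for H2-Aa and 6.51 for H2-Eb1.

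Ciita lies on chromosome 16 (mm10, 10480059 to 10528418, plus strand), and 3.5% of its exon bases are also covered by Dexi on the opposite strand, whose reads were not separated because the counting ignored strand. In the sham mice it was at 1.53, 1.81, 1.66 and 1.33 CPM, whereas BCAS 1 to 4 stood at 14.8, 2.94, 9.67 and 2.56 CPM. BCAS 1 and BCAS 3 stood well apart, whereas BCAS 2 and BCAS 4 lay just above the sham mice, and BCAS 4 rather than BCAS 2 was the lowest. The log2 FC of 2.24 (SE 0.56, adjusted p = 0.0193, edgeR) was called, and it was lost when sham 1, sham 2, sham 4 or BCAS 3 was left out, with adjusted p of 0.0581, 0.0523, 0.0581 and 0.0503 at log2 FC values of 2.22, 2.30, 2.16 and 2.10. Under limma-voom its log2 FC was 1.89 and its adjusted p 0.074. Without BCAS 1 and BCAS 3 together the log2 FC of Ciita was 0.82 (adjusted p = 0.1, edgeR).

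H2-DMa and H2-DMb1, the 2 subunit genes of the peptide editor H2-DM, also lie on chromosome 17 (mm10, 34135182 to 34139101 and 34153072 to 34160230, both plus strand). H2-DMa was nearly constant in the sham mice, at 10.6, 11.0, 10.6 and 11.3 CPM, and reached 46.6, 18.9, 32.5 and 29.9 CPM in the BCAS mice. Every BCAS mouse was thus clear of the sham mice, and the BCAS mice differed among themselves by no more than 2.47-fold. From 10.9 ± 0.378 to 32.0 ± 11.4 CPM (SD, n = 4 mice each), the log2 FC was 1.55 with a SE of 0.24 and an adjusted p of 0.00343 by edgeR. H2-DMb1 started from 1.76, 1.43, 1.37 and 0.905 CPM in the sham mice and was at 27.7, 5.20, 17.3 and 11.1 CPM in the BCAS mice, with a log2 FC of 3.48 (SE 0.50, adjusted p = 0.00292, edgeR). Its near copy H2-DMb2 lies beside it, and the counting could have split or dropped reads of the pair, so the separate levels of the 2 genes are less certain than those of H2-DMa.

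CD80 and CD86 are the ligands by which presenting cells engage CD28 on T cells. Both genes lie on chromosome 16 (mm10), Cd80 at 38455561 to 38496335 on the plus strand and Cd86 at 36603869 to 36666081 on the minus strand. Cd80 was at 1.31, 1.12, 1.32 and 1.27 CPM in the sham mice and at 5.45, 2.11, 4.38 and 3.38 CPM in the BCAS mice, without overlap. Its log2 FC was 1.61 (SE 0.30, adjusted p = 0.00721, edgeR). With BCAS 1 and BCAS 3 both left out the log2 FC of Cd80 was 1.15 and no longer called (adjusted p = 0.0511, edgeR). Cd86 was at 2.90, 3.37, 2.12 and 3.32 CPM in sham and at 61.0, 13.7, 34.3 and 30.5 CPM in BCAS mice. The lowest BCAS mouse for Cd86 was thus far above the highest sham mouse, and the log2 FC was 3.58 (SE 0.43, adjusted p = 0.00195, edgeR), the smallest adjusted p of the 9.

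To set the genes against each other, counts were divided by exon length and expressed as TPM, in which the length-scaled counts of a library sum to 1000000. In sham mice H2-DMa led with a mean of 28.0 TPM, followed by Cd74 at 21.8, H2-Ab1 at 9.39, H2-Eb1 at 9.36, H2-Aa at 5.75, H2-DMb1 at 3.88, Cd86 at 3.36, Cd80 at 1.43 and Ciita at 0.70 TPM. Neighbours in this order were compared within each mouse, and only the steps from Cd74 to H2-Ab1, from Cd86 to Cd80 and from Cd80 to Ciita were larger than the SD of the log2 ratio over the 4 mice. In BCAS mice Cd74 led at 501 TPM, ahead of H2-Eb1 at 171, H2-Ab1 at 163, H2-Aa at 142, H2-DMa at 80.8, H2-DMb1 at 42.5, Cd86 at 39.3, Cd80 at 4.29 and Ciita at 3.22 TPM. There the steps from Cd74 to H2-Eb1, from H2-Ab1 to H2-Aa, from H2-DMa to H2-DMb1 and from Cd86 to Cd80 exceeded that spread, and the other neighbours did not differ beyond it. The place of H2-DMa was not the same in every mouse. It was first by mean in sham mice, but Cd74 exceeded it in sham 2 (39.1 against 27.8 TPM), and it was behind 4 others by mean in BCAS mice, but second to Cd74 in BCAS 2 (49.6 TPM). Ciita had the lowest mean in both groups, in BCAS mice not beyond the spread from Cd80.

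Whether related genes kept their proportion within a mouse was examined next. For 6 pairs, the log2 ratio of the 2 CPM values was taken in each mouse and compared between the groups by an exact two-sided permutation test over the 70 ways to divide 8 mice into 4 and 4, whose smallest possible p is 0.0286. The log2 ratio of Cd80 to Cd86 was -1.09, -1.5, -0.64 and -1.32 in sham 1 to 4 and -3.46, -2.63, -2.94 and -3.13 in the BCAS mice. Every BCAS mouse was below every sham mouse, with a difference of -1.90 (exact permutation p = 0.0286, 0.0571 after Benjamini-Hochberg adjustment over the 6 pairs). The log2 ratio of H2-DMa to H2-DMb1 was 2.93 ± 0.41 in sham and 1.23 ± 0.50 in BCAS mice (SD, n = 4 mice each), below every sham mouse in 4 of 4 BCAS mice (exact permutation p = 0.0286, adjusted 0.0571). That of Cd74 to H2-Ab1 lay in the other direction, 1.04 ± 0.22 in sham and 1.41 ± 0.06 in BCAS mice, above every sham mouse in 4 of 4 BCAS mice (exact permutation p = 0.0286, adjusted 0.0571). It was the most constant of the 6 ratios among the BCAS mice, although both genes varied about 15-fold there.

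The remaining 3 ratios gave no separation. Ciita to H2-Ab1 was lower by 1.87 on average in BCAS mice (exact permutation p = 0.0571, adjusted 0.0857), and the BCAS 2 value of -1.52 lay inside the sham range of -1.91 to -0.51. H2-Aa to H2-Ab1, the 2 chains of one dimer, differed by 0.42 (exact permutation p = 0.2, adjusted 0.24), and H2-Eb1 to H2-Ab1 by 0.05 (exact permutation p = 0.857). At the adjusted level none of the 6 pairs passed 0.05, which 4 mice against 4 could not reach here unless more of the pairs had separated completely, and 3 of the 6 did so unadjusted.

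Beyond the 9 genes, a list of 37 further genes of the class II pathway was found in the tables, of which 32 were abundant enough to be tested. Of these, 18 were called higher and 0 lower, with a median log2 FC of 1.86, against 11.0% and 1.28% of all tested genes. The called genes served peptide editing, proteolysis, interferon-gamma input, costimulation and T-cell contact. Of the 9 genes of transcription and turnover 0 were called, and no test was made of a difference between the roles. A level of 0.558 CPM in 4 libraries was needed to enter the test, and 5 of the 32 genes (H2-DMb2, H2-Oa, H2-Ob, Cd40 and Cd28) were under it in at least 1 sham mouse, so that their entry depended on the BCAS mice. Of the other 27, 14 were called higher.

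The 3 peptide editing genes were called higher, but all 3 entered the test through the BCAS mice, and their values are given as a description. H2-Oa and H2-Ob encode the subunits of H2-O. H2-Oa was at 0.284, 0.374, 0.343 and 0.422 CPM in the sham mice and at 11.1, 3.55, 6.05 and 4.96 CPM in the BCAS mice, a log2 FC of 4.15 (adjusted p = 0.00146, edgeR). It spread only 3.13-fold among the BCAS mice, far less than the chain genes, and 15.2% of its exon bases are shared with another transcript. H2-Ob had a log2 FC of 3.81 (adjusted p = 0.00280, edgeR) and H2-DMb2 one of 3.16 (adjusted p = 0.0129, edgeR). Of the other chain genes, the disrupted H2-Ea-ps had 0 read pairs in all 8 libraries, which allows up to 0.132 to 0.187 CPM per library, counting error only, and H2-Eb2 was too scarce to test.

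Of the 9 genes of endosomal proteolysis, 8 were called higher. Ctss, the cathepsin S gene whose product trims the invariant chain, was at 51.9, 58.03, 49.8 and 58.7 CPM in sham mice and at 1914, 430, 1026 and 871 CPM in BCAS mice, with a log2 FC of 4.28 (adjusted p = 0.00146, edgeR). All BCAS mice were far above all sham mice. The thiol reductase gene Ifi30, whose product unfolds antigens with disulfide bonds, was at 1.08 to 2.65 CPM in sham mice and at 7.52 to 64.1 CPM in BCAS mice, and its log2 FC was 4.12 (adjusted p = 0.00375, edgeR). The cathepsin genes Ctsd, Ctsz, Ctsh, Ctsl and Ctsb and the legumain gene Lgmn had log2 FC values of 4.06, 3.80, 3.27, 2.45, 2.10 and 2.27. Sppl2a, whose product cleaves the last membrane-bound piece of the invariant chain, had a log2 FC of 0.95 (adjusted p = 0.00893, edgeR), short of the fold required. Ctsd, Ctsl and Ctsb share 34.4%, 26.8% and 12.8% of their exon bases with other annotated transcripts.

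None of the 7 genes for the proteins on which CIITA docks was called. The RFX genes Rfx5, Rfxap and Rfxank had log2 FC values of 0.30, -0.33 and 0.23, and the 3 NF-Y genes Nfya, Nfyb and Nfyc had 0.94, -0.54 and -0.13. The value of Creb1 was 0.13. Rfx5 and Rfxank share 26.8% and 33.8% of their exon bases with genes on the opposite strand, whose reads were not separated. For Rfx5, Nfya and Nfyb the adjusted p was under 0.05 (0.0427, 0.0201 and 0.0173, edgeR) with folds below the threshold. March1 and March8, ubiquitin ligase genes whose products remove class II from the surface, had log2 FC values of -0.02 (adjusted p = 0.934) and 0.28 (adjusted p = 0.0491, edgeR).

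On the side of interferon-gamma, 2 of the 5 tested genes were called higher. The receptor chain gene Ifngr1 had a log2 FC of 2.05 (adjusted p = 0.00476, edgeR), and Irf1, a transcription factor gene induced by the cytokine, had 1.74 (adjusted p = 0.00712, edgeR). Values for Ifngr2, Jak2 and Jak1 were 0.55, 0.35 and 0.02. Ifng itself was too scarce to test, with 0, 1, 0 and 0 read pairs in sham 1 to 4 and 3, 1, 4 and 0 in the BCAS mice.

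Among the genes of costimulation and of T-cell partners, Icosl, Cd274, Cd4 and Lag3 rose, which were all 4 of the tested ones that reached the filter's level in every sham mouse. Cd40 and Cd28 entered the test through the BCAS mice, and their values are given as a description. Icosl and Cd274, ligands of ICOS and PD-1, had log2 FC values of 1.97 (adjusted p = 0.00333, edgeR) and 2.36 (adjusted p = 0.00493, edgeR), and Cd40 one of 1.62 (adjusted p = 0.0774, edgeR). Lag3, a class II receptor of T cells whose gene was also well detected in sham mice at 5.43 to 8.99 CPM, was at 220, 53.4, 150 and 167 CPM in the BCAS mice (log2 FC 4.35, adjusted p = 0.00146, edgeR). Cd28, the receptor of CD80 and CD86, was at 0.499 to 0.801 CPM in sham mice and at 14.99, 0.618, 9.83 and 2.72 CPM in BCAS mice, and its groups overlapped through BCAS 2 (log2 FC 3.53, adjusted p = 0.0177, edgeR). Cd4, the coreceptor for class II, had a log2 FC of 1.69 (adjusted p = 0.0280, edgeR) and also overlapped, since sham 2 stood at 4.37 CPM and BCAS 2 at 3.55 CPM. Pdcd1lg2, a second PD-1 ligand gene, and Ctla4, the inhibitory receptor gene for CD80 and CD86, were too scarce to test, with at most 15 and 16 read pairs in any library.

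**Figure D2:**
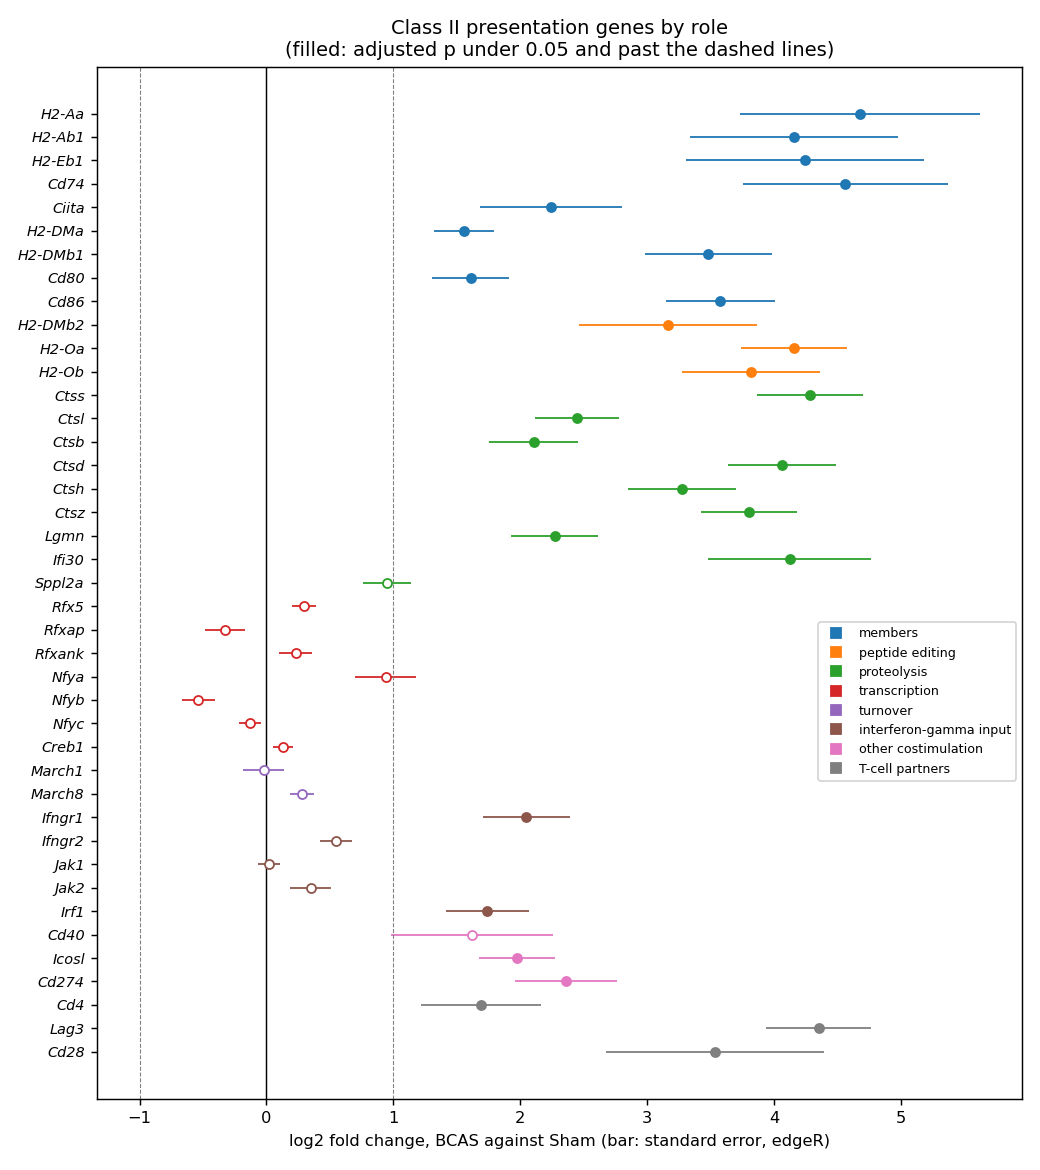
Log2 FC of BCAS against sham mice with its SE from edgeR, for the 9 genes and the 32 tested genes of the class II pathway, coloured by role. Filled points are called genes: all 9 genes and 18 of the 32 others are filled, and none of the 7 transcription genes is.

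The genes of MHC class I presentation, which all nucleated cells can express, were set beside them. Of 14 tested, 10 were called higher and 0 lower, with a median log2 FC of 2.57 against 3.58 for the 9 class II genes. H2-K1, a classical heavy chain gene, was at 29.9 to 41.0 CPM in sham mice and at 893, 158, 499 and 352 CPM in BCAS mice, with a log2 FC of 3.71 (adjusted p = 0.00206, edgeR). Its 5.64-fold spread over the BCAS mice was less than that of the class II chain genes, and the groups were widely apart. H2-D1 and B2m, the latter encoding the light chain, had log2 FC values of 3.75 (adjusted p = 0.00195, edgeR) and 3.54 (adjusted p = 0.00181, edgeR). Nlrc5, the class I counterpart of Ciita, had a log2 FC of 4.18 (adjusted p = 0.00347, edgeR), with 1.08 to 1.5 CPM in sham mice and 42.3, 4.74, 28.1 and 13.1 CPM in BCAS mice. The difference between the class I and the class II lists was not tested.

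Several cell populations can carry class II, and the levels of their markers are given beside the 9 genes. Pan-myeloid markers (5 of 5 genes called higher) summed to 122 to 144 CPM in sham mice and to 1828, 487, 993 and 942 CPM in BCAS mice. Microglia identity markers (5 of 5) summed to 223 to 273 CPM in sham and to 3126, 853, 1493 and 1659 CPM in BCAS mice. In BCAS 3 and BCAS 4 these sums were thus close together, where the summed class II genes were 568 and 240 CPM. Border macrophage markers (3 of 5 called higher, of which Cbr2 entered the test through the BCAS mice) summed to 13.4 to 16.2 CPM in sham mice and to 61.4, 23.6, 45.8 and 36.0 CPM in BCAS mice.

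Markers of leukocytes from blood were scarce in sham mice. Monocyte and neutrophil markers summed to 0.724 to 1.5 CPM there and to 81.1, 3.55, 50.6 and 13.1 CPM in BCAS mice, and 2 of 5, Ly6c2 and Ccr2, could be tested. T-cell markers summed to 0.229 to 0.682 CPM in sham and to 40.0, 1.55, 21.8 and 7.85 CPM in BCAS mice, and 1 of 5, Cd8a, could be tested. B-cell markers summed to 0.511 to 1.75 CPM in sham mice and to 23.0, 2.63, 16.4 and 3.65 CPM in BCAS mice, and 1 of 5, Cd79b, could be tested. All 4 of these genes entered the test only through the BCAS mice, so that no count of calls is drawn from them. All 3 sums ordered the BCAS mice 1, 3, 4 and 2, as did the sums of pan-myeloid, border macrophage and dendritic cell markers and of the class I genes. The microglia identity sum ran 1, 4, 3 and 2 and the leptomeningeal sum 3, 1, 4 and 2. Sham 2, the sham mouse with the highest chain and invariant chain genes, also had the highest sham sums of monocyte and neutrophil, B-cell, pan-myeloid, microglia identity, border macrophage and dendritic cell markers, whereas the T-cell sum was highest in sham 1.

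Dendritic cell markers gave a mixed picture. Of 8 listed, 6 could be tested and 3 were called higher (Itgax and Clec9a entered the test through the BCAS mice), with log2 FC values of 6.92 for Itgax, 2.23 for Siglech and 2.12 for Clec9a, of which Itgax and Siglech are also expressed by microglia. Flt3, Zbtb46 and Cd209a had log2 FC values of -0.14, -0.43 and 1.0 and were not called. Cd209a, too, entered the test through the BCAS mice, whereas Flt3 and Zbtb46 were already at 5.15 to 8.92 and 13.1 to 16.3 CPM in sham mice. Xcr1 and Ccr7 did not pass the filter. Xcr1 had 0, 0, 2 and 0 read pairs in sham 1 to 4 and 46, 2, 20 and 7 in BCAS 1 to 4, and Ccr7 had 0, 0, 1 and 9 and then 148, 11, 84 and 7. Leptomeningeal markers summed to 39.5 to 51.1 CPM in sham mice and to 423, 94.6, 437 and 176 CPM in BCAS mice, with 3 of 4 called higher, while choroid plexus markers (0 of 4 called) summed to 13.6 to 754 CPM in sham and 27.3 to 61.4 CPM in BCAS mice. Astrocyte markers were called higher for 1 of 4, cortical neuron markers lower for 1 of 5, and oligodendrocyte and endothelial markers for 0 of 4 each. At an adjusted p under 0.05 without the fold threshold (edgeR), 4 astrocyte and 2 endothelial markers were higher, 3 neuron markers were lower, and 0 oligodendrocyte markers differed. The log2 FC ran from 0.486 to 1.65 for the astrocyte markers and from -1.08 to -0.872 for the neuron markers. The part of any of these cell types in the class II levels was not tested.

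**Figure D3:**
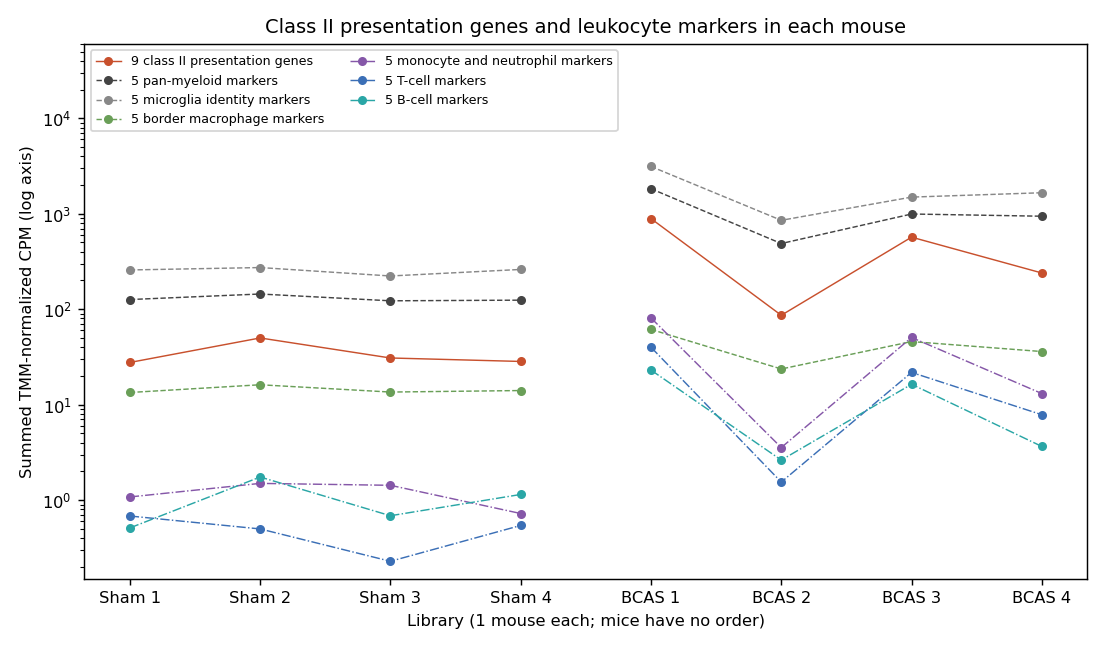
Summed TMM-normalized CPM (log axis) of the 9 class II genes and of 6 marker lists in each mouse, with lines that only guide the eye. The class II sum runs from 27.7 to 49.98 CPM in sham mice and from 86.4 to 889 CPM in BCAS mice, and all lists are lowest in BCAS 2 and highest in BCAS 1 among the BCAS mice.

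The 9 genes were then taken relative to the myeloid markers in the same mouse, as the log2 CPM of a gene minus the mean log2 CPM of the 5 pan-myeloid markers. That mean was higher by 3.33 in BCAS mice, and by 4.33, 2.30, 3.43 and 3.27 in BCAS 1 to 4 relative to the sham mean. For Cd86 the relative level was nearly the same in both groups, -1.77 ± 0.32 in sham and -1.75 ± 0.09 in BCAS mice (SD, n = 4 mice each; difference 0.03, exact permutation p = 0.943). H2-DMb1 differed by -0.16 (exact permutation p = 0.571, adjusted 0.735).

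Relative to the myeloid markers 3 genes were lower in 4 of 4 BCAS mice. H2-DMa went from 0.19, -0.02, 0.03 and 0.22 in the sham mice to -2.15, -1.41, -1.76 and -1.72 in the BCAS mice, a difference of -1.86. Cd80 differed by -1.88 and Ciita by -1.53, each again with all BCAS mice under all sham mice. These 3 had the smallest p the design allows (exact permutation p = 0.0286, 0.0857 after adjustment over the 9 genes), so none of the 9 passed at the adjusted level and 3 did unadjusted.

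The chain and invariant chain genes showed a split among the BCAS mice. H2-Aa relative to the markers was at -2.98, -1.0, -2.57 and -2.23 in the sham mice and at -0.56, -2.97, -0.33 and -1.86 in the BCAS mice. BCAS 1 and BCAS 3 were above every sham mouse, and BCAS 2 and BCAS 4 lay within the sham range. The group difference was 0.76 for H2-Aa (exact permutation p = 0.314, adjusted 0.566), 0.34 for H2-Ab1 (adjusted 0.735), 0.39 for H2-Eb1 (adjusted 0.739) and 0.71 for Cd74 (adjusted 0.566 by the same exact permutation test). For each of the 4, BCAS 1 and BCAS 3 were above every sham mouse, and for H2-Ab1, H2-Eb1 and Cd74, BCAS 2 was below every sham mouse. On omitting single mice these differences ran from 0.396 to 1.28 for H2-Aa, from 0.0393 to 0.758 for H2-Ab1, from 0.00181 to 0.911 for H2-Eb1 and from 0.403 to 1.11 for Cd74. They were lowest without BCAS 3, or without sham 1 for H2-Eb1, and highest without BCAS 2. With the 5 microglia identity markers in place of the pan-myeloid ones, H2-Aa and Cd74 differed by 1.79 and 1.74 (exact permutation, adjusted p = 0.0857), H2-DMb1 by 0.87 and Cd86 by 1.05, and H2-DMa and Cd80 by -0.83 and -0.85 (exact permutation, adjusted p = 0.0643 for each of the last 4). H2-Ab1 and H2-Eb1 differed by 1.37 and 1.42 (exact permutation, adjusted p = 0.184 and 0.193). Ciita differed by -0.50 (exact permutation, adjusted p = 0.343), with 2 of 4 BCAS mice below and 1 above every sham mouse, so that its separation was lost. By construction the other reference shifts the differences of all 9 genes by the same amount, and that of H2-DMb1 changed sign with it. None of the 9 passed at the adjusted level with either list.

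**Figure D4:**
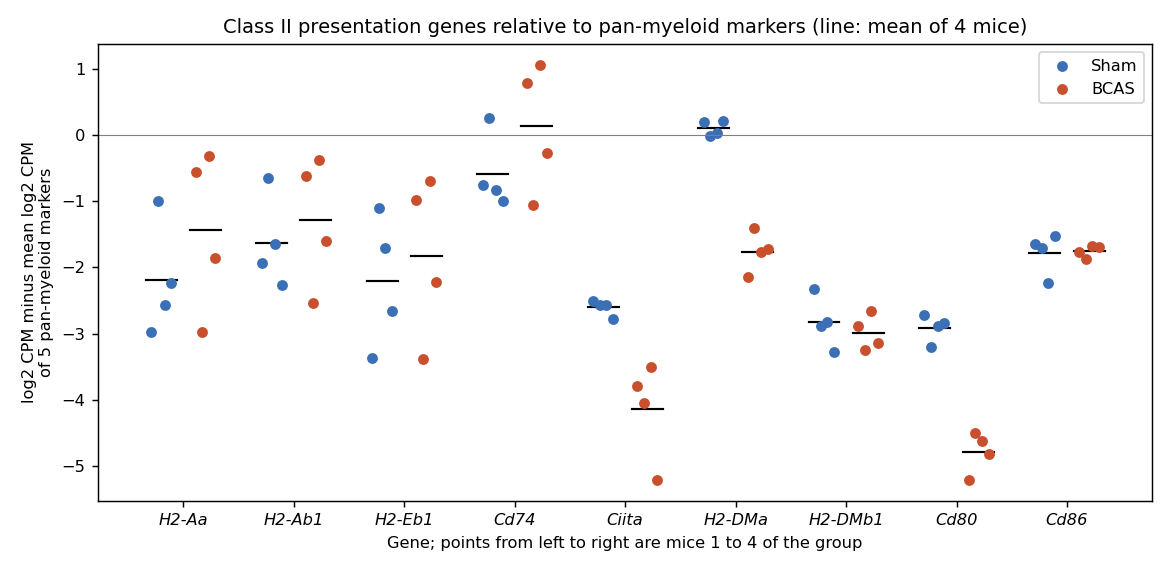
Log2 CPM of each of the 9 genes minus the mean log2 CPM of 5 pan-myeloid markers in the same mouse, with sham mice in blue, BCAS mice in orange and the group mean as a line. Ciita, H2-DMa and Cd80 have all BCAS mice under all sham mice, Cd86 has nearly the same mean in both groups, and for H2-Aa, H2-Ab1, H2-Eb1 and Cd74 the BCAS mice spread to both sides of the sham mean.

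The genes whose pattern over the 8 mice was most like that of the chain and invariant chain genes were sought by the root mean square difference, on the log2 scale, from the mean profile of H2-Aa, H2-Ab1, H2-Eb1 and Cd74, each gene relative to its own sham mean. Of 15865 genes with a mean of at least 1 CPM, the closest 5 were Ccr2 at 0.213, F830016B08Rik at 0.481, Cytip at 0.483, Ms4a6c at 0.491 and Col3a1 at 0.5. All but Col3a1 had sham mice under 0.558 CPM, the filter's level, and so entered through the BCAS mice. Their sham profiles rest on few read pairs. The 4 genes of the profile themselves lay at 0.217 to 0.308. Ccr2, a chemokine receptor of monocytes, was at 0.398, 1.31, 0.858 and 0.362 CPM in the sham mice and at 40.5, 2.01, 24.1 and 6.70 CPM in the BCAS mice. Like the 4 genes it was compared with, it was highest in sham 2 among the sham mice and lowest in BCAS 2 among the BCAS mice, which the choice by likeness favours. Col3a1, a fibrillar collagen gene, was at 3.92 to 6.82 CPM in sham mice and at 209, 17.7, 164 and 91.7 CPM in BCAS mice. The likeness is over 8 mice that also share the group difference, and it is given as a description.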

How the data were processed

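RNA-seq counts of the right cerebral cortex of 4 sham and 4 BCAS mice were analysed, grouped by the labels. The authors used Trim Galore for trimming, HISAT2 for alignment to mm10 and SAMtools 1.9 for sorting, and deposited raw counts per gene. The deposited count tables name featureCounts 2.0.1, GENCODE vM20 exons and no strand option, whereas the submitters' notes name featureCounts 1.6.3. Of the 54752 genes, 54723 were given a symbol by their identifier.

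Genes were tested with edgeR 4.0.16 in R 4.3.3, with TMM scaling, filterByExpr (minimum count 10, minimum total 15) and the quasi-likelihood test, without covariates. Adjustment followed Benjamini-Hochberg over all 17136 tested genes. The prior count was 2 for log2 CPM. A count of 0 allows up to 3 counts. The SE of a log2 FC includes the spread between mice, and the limit for a count of 0 covers counting error only. The scripts were tested on simulated data. Figures used matplotlib 3.10.9 in Python 3.11.15.

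The 9 genes, the other lists and the tests were chosen with earlier results of these data known. Results for 1 further gene of the pathway are not reported here. Named genes are the 9, the further class II genes by role, the class I chain, light chain and Nlrc5 genes, markers and the 5 genes of most like profile. Alternatives were other scalings and filters, DESeq2 1.42.0, limma-voom and limma on log2(CPM + 1) (limma 3.58.1), a replicate block, other fold thresholds, other prior counts, other reference markers and leaving out each mouse. Leaving out BCAS 1 and 3 together, leaving out mice for the ratios and the looser promoter element were added after the data were seen.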

Additional observations from a re-analysis of the deposited data

Results flagged for a closer look

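In sham 2, Cd74 was at 13.4 CPM, whereas the other 3 sham mice were at 4.83 to 5.78 CPM. Its gap to the nearest mouse was 0.889 of the range of the group, above Dixon's critical value for 4 samples. In all, 18 groups were examined, 9 genes in each of 2 groups, and chance alone passes that value in about 1 group in 20. Cd74 remained called with a log2 fold change of 3.95 to 5.0 when each mouse was left out in turn, sham 2 included.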

How the results depend on the processing

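Of the 9 genes, 9 were called in the main test and 8 to 9 when each mouse was left out in turn, 5 under limma-voom, 6 when the test itself required a log2 fold above 1, and 6 without BCAS 1 and BCAS 3 together. The test that itself required a log2 fold above 1 was left out of the fits counted by gene, and which of the 9 it did not call is not given. Of the remaining 162 alternative fits of single genes, 150 kept their call, 12 lost it and 0 reversed. Cd74, H2-DMa, H2-DMb1 and Cd86 were called in all 18 of the remaining fits of each. Over these fits the log2 fold change ran from 2.74 to 5.36 for H2-Aa, from 2.52 to 4.68 for H2-Ab1, from 2.32 to 4.79 for H2-Eb1 and from 0.82 to 2.53 for Ciita. Without BCAS 1 and BCAS 3, H2-Eb1, Ciita and Cd80 had adjusted p of 0.0583, 0.1 and 0.0511 in edgeR. Over all genes, 2097 were called in the main test, 744 when tested against a log2 fold change of 1, 1140 without BCAS 1 and BCAS 3 together, 5490 without a fold threshold, and 1644 to 2967 with each mouse left out. The causes were not tested, beyond the fewer mice or the other threshold that these settings bring by construction. Of the other class II pathway genes 18 were called, 14 to 24 over the alternatives and 16 to 21 with each mouse left out. The 6 pair ratios and the 9 ratios to markers had 0 adjusted calls under every setting, which says nothing of their stability in a design this small. With microglia identity markers as reference, the group differences of all 9 ratios moved up by the same amount by construction. Examples are H2-DMb1 from -0.16 to 0.87, Cd86 from 0.03 to 1.05 and Ciita from -1.53 to -0.50. With each mouse left out these ratios could not be tested to 0.05, since 35 arrangements allow no p under 0.0571, and their sizes are values without a test. The libraries of the groups share the numbers 1 to 4, but same-numbered mice did not deviate together (correlations of -0.0455, -0.103, -0.00821 and 0.00126, and 0 of 8 mice correlated best with their own number), so the number was not taken as a pairing. With the replicate block 1809 genes and 8 of the 9 were called, H2-Eb1 having an adjusted p of 0.0566. Ifng, H2-Eb2 and most B-cell and T-cell markers did not pass the filter on low counts, some of them in spite of ample counts in single BCAS mice, and were not tested.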
